A study of Mus musculus with 22 samples.

Results

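The 10 genes described here are used as markers of endothelial cells, the cells that line blood vessels: Flt1, Kdr, Tie1, Tek, Pecam1, Cdh5, Esam, Ly6c1, Sox17 and Sox18. They were chosen by name, and all 10 of 10 were found among the 30735 genes of the deposited tables. The RNA came from left ventricles of FVB mice, 3 to 5 months old, that were either transgenic for VCP (VCP TG) or wild type (WT). VCP is an ATPase that pulls ubiquitinated proteins out of complexes and membranes, and the study asked how it affects the enlargement and failing function of the loaded heart. Pressure was raised by transverse aortic constriction (TAC), a narrowing of the aorta, and sham mice had surgery without it. There were 22 libraries in 6 groups. At 2 weeks each genotype had 4 sham libraries, and TAC was represented by 4 from WT and 3 from VCP TG. At 5 weeks TAC had again 4 from WT and 3 from VCP TG, and a sham group of that time was not analysed here. The promoter that drives the transgene, the number of transgenic lines and which library came from which animal are not given in the sources used here, so p-values measure only the spread between these libraries.

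Endothelial cells depend on vascular endothelial growth factor (VEGF), which acts through the receptor kinases Kdr and Flt1, and on angiopoietins, which act through Tek with Tie1 as its partner. Adhesion molecules at cell junctions hold the lining together, and transcription factors of the SoxF family help to set arterial and other vessel identities. In the heart, capillaries run beside nearly every muscle cell, and pressure overload is known to change the balance between muscle mass and vessel supply. In a whole-tissue library, fewer endothelial cells and less RNA per endothelial cell cannot be told apart.

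The sequences just upstream of the 4 receptor genes are shown because the members of each receptor pair had unlike estimates in WT hearts after TAC. They are from RefSeq (GRCm38.p6), in which 5 of the 10 genes matched an entry (Flt1, Kdr, Tie1, Tek and Ly6c1), and each is cut where the gene's GENCODE model begins. The windows are chr5:147726012-147726261 (minus strand) for Flt1, chr5:75978459-75978705 (minus strand) for Kdr, chr4:118490062-118490099 (minus strand) for Tie1 and chr4:94739039-94739288 (plus strand) for Tek. Capitals mark matches on either strand to motifs that were chosen after the sequences were seen. These are the core bound by many ETS factors, AGGAAG, the cyclic AMP response element, TGACGTCA, the TATA box, spelled TATAAA, and a site for GATA factors, spelled AGATAA.
Flt1: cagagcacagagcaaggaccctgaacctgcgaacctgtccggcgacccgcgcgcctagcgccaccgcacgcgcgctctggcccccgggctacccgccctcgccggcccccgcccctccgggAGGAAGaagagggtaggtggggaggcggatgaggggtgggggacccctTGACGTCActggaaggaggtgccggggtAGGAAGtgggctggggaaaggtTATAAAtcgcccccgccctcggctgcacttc
Kdr: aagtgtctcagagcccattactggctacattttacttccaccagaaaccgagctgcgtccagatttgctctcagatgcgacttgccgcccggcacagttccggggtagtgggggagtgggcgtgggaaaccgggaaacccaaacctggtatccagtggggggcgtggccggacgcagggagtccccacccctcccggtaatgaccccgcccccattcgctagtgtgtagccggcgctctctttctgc
Tie1: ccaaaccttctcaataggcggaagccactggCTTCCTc
Tek: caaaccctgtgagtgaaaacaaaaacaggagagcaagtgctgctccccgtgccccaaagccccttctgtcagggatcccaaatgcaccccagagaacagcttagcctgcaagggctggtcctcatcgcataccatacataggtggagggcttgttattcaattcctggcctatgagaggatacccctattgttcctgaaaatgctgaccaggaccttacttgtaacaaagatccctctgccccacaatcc
In the 250 bases before its RefSeq start, Flt1 held 2 ETS cores, 1 cyclic AMP response element and 1 TATA box. Tie1 held 1 ETS core in its 250 bases, read on the other strand and so printed as CTTCCT, and no motif matched in the windows of Kdr and Tek. Of 32851 promoter windows of that length, 29.5% held the ETS core, 1.55% the cyclic AMP response element, 12.4% the TATA box and 9.99% the GATA site. These matches describe letters and show no binding.

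All 10 genes were above 0 in all 22 libraries. Levels are TPM, in which transcript abundances corrected for length are scaled to a total of 1000000 per library, so that genes can be set side by side. Over all libraries, Ly6c1 had the highest mean (161 TPM), followed by Cdh5 (52.3 TPM), Pecam1 (51.0 TPM), Flt1 (36.8 TPM), Kdr (25.5 TPM), Esam (21.3 TPM), Tek (16.3 TPM), Sox18 (15.8 TPM), Tie1 (12.4 TPM) and Sox17 (4.83 TPM). Genes above 0 in all 22 libraries and with a higher mean than Ly6c1 made up only 0.983% of the genes in the tables. For Sox17 that share was 25.2%. Sox17 varied most between libraries, by 23.4-fold from the lowest to the highest, and Tek least, by 2.59-fold. The mean over libraries was highest in WT sham for 9 of the 10 genes, the exception being Tek. Ordered by group mean, neighbouring groups were apart by more than the larger of their SDs in 5 of 50 neighbour pairs, so most steps in that order lie within the spread between libraries. The 5 week libraries come from a separate table, so levels set against the 2 week libraries also differ by table.

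**Figure D1:**
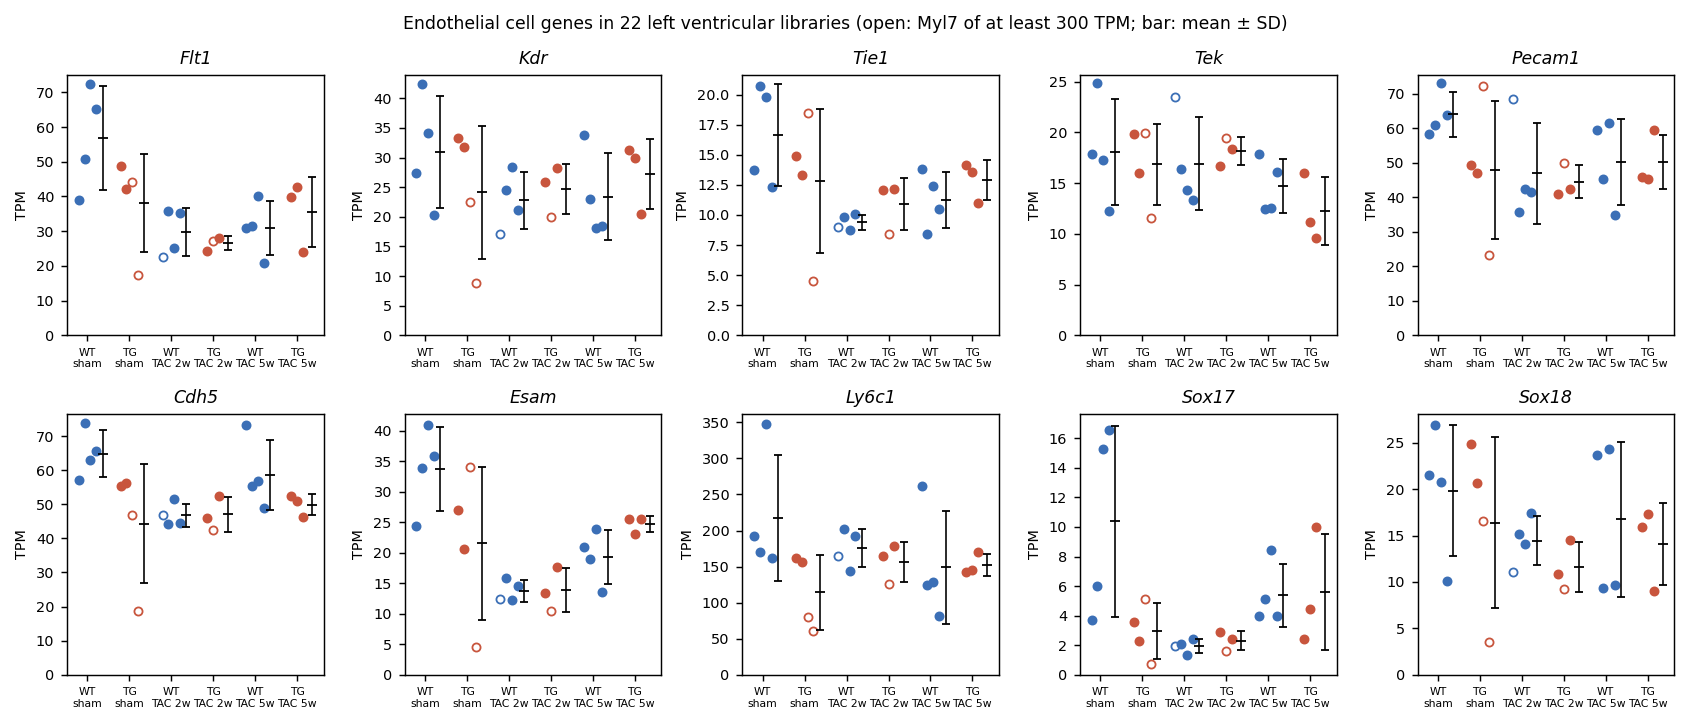
Level of each gene (TPM, vertical axes from 0) in each of the 22 libraries, by group, with TG for VCP TG; the bar beside each group is its mean ± SD and open points are the 4 libraries with Myl7 of at least 300 TPM. Esam, Tie1, Flt1, Cdh5 and Sox17 of WT 2 weeks TAC lie below all 4 WT sham libraries, and the lowest point of most panels is VCP TG sham replicate 4.

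Several libraries stood apart, and the values they touch are given beside each result. Mitochondrially encoded genes took 27.9% to 72.9% of TPM, the highest share being that of VCP TG sham replicate 4, which was also the lowest library of all 22 for 9 of the 10 genes. The atrial light chain Myl7 reached 394 to 2269 TPM in 4 libraries (VCP TG sham replicates 3 and 4, replicate 2 of VCP TG 2 weeks TAC and replicate 1 of the group labelled WT 2 weeks TAC). After rescaling each library to its nuclear protein-coding genes, Vcp fell into 11 libraries at 114 to 215 and 11 at 259 to 512. Of these, 3 libraries labelled WT (2 weeks TAC replicate 1 and 5 weeks TAC replicates 2 and 3) lay in the upper range and 2 labelled VCP TG (sham replicate 1 and 5 weeks TAC replicate 3) in the lower. Every genotype named below is that of the label. The 8 cardiomyocyte markers, defining for the labelled tissue, summed to 17165 to 36815 TPM. Read depth is unknown.

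In WT hearts 2 weeks after TAC, compared with WT sham, 4 of the 10 endothelial genes fell when the 8 WT libraries were fitted alone: the VEGF receptor Flt1, the Tie receptor Tie1, the junction molecule Esam and the arterial transcription factor Sox17. A call here is a limma p on log2(TPM + 1) that stayed under 0.05 when adjusted by Benjamini and Hochberg's method across the 13709 genes of the fit. In that fit 6.31% of all genes tested were called lower and 0.722% higher, and no endothelial gene was called higher. When all 15 libraries of the 2 week table shared 1 estimate of spread, 0 of the 10 genes and 0 of 15540 genes were called (1773 at an unadjusted p under 0.05). Esam, Flt1, Tie1 and Sox17 were 4 of 10 endothelial genes lower at that unadjusted p, beside 8.47% of all genes tested. The fit of WT libraries alone was added because an earlier analysis of these data had found the VCP TG sham group far more variable: the median SD of the 10 genes was 0.76 log2 units there, against 0.39 for WT sham and 0.25 for WT after 2 weeks of TAC. The median estimate of the 10 genes was -0.47 log2 units, beside -0.16 for all genes tested in the WT fit, and 9 of the 10 lay below that median of all genes.

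Flt1 binds VEGF tightly but signals weakly, so that it can act as a trap for the ligand. It stood at 39.0, 50.9, 72.4 and 65.2 TPM in WT sham and at 22.5, 35.9, 25.1 and 35.3 TPM after TAC. All 4 TAC libraries lay below all 4 sham libraries, and the log2 difference was -0.91 ± 0.23 (standard error, limma adjusted p = 0.0412). Kdr, the main signalling receptor for VEGF, stood at 27.4, 42.3, 34.1 and 20.2 TPM in WT sham and at 17.2, 24.6, 28.4 and 21.1 TPM after TAC. The groups overlapped, the estimate was -0.40 ± 0.23 (limma adjusted p = 0.303), and the 95% interval ran from -0.91 to 0.11. The ratio of Flt1 to Kdr within a library was 1.20 to 3.23 in WT sham and 0.885 to 1.67 after TAC, so the groups overlapped. The difference between the responses of the 2 genes was not tested.

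Tie1 has no well established ligand of its own and modulates Tek. It stood at 13.7, 20.7, 19.8 and 12.3 TPM in WT sham and at 9.02, 9.80, 8.74 and 10.05 TPM after TAC. The groups did not overlap and the log2 difference was -0.73 ± 0.19 (limma adjusted p = 0.0415). Tek, the angiopoietin receptor, stood at 17.9, 24.9, 17.3 and 12.2 TPM in WT sham and at 23.5, 16.4, 14.4 and 13.4 TPM after TAC. Its groups overlapped widely and its estimate was -0.08 ± 0.23, with a 95% interval from -0.59 to 0.43 (limma adjusted p = 0.859). The ratio of Tie1 to Tek was 0.770, 0.830, 1.14 and 1.01 in WT sham and 0.383, 0.597, 0.608 and 0.751 after TAC. These ratios did not overlap between the groups; they were formed after the values were seen and were not tested. The highest Tek and the lowest ratio among the TAC libraries belong to replicate 1, a library with 1546 TPM of Myl7.

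Among the junction genes, Esam, an immunoglobulin-like molecule at tight junctions that platelets also carry, had the smallest adjusted p. It stood at 24.4, 33.8, 40.9 and 35.8 TPM in WT sham and at 12.3, 15.9, 12.2 and 14.6 TPM after TAC. Every TAC library lay well below every sham library, and the log2 difference was -1.22 ± 0.18 (limma adjusted p = 0.0120). Cdh5, the cadherin of endothelial adherens junctions, stood at 57.2, 73.9, 63.0 and 65.8 TPM in WT sham and at 46.9, 44.2, 51.5 and 44.4 TPM after TAC. These groups did not overlap either, and the estimate of -0.46 ± 0.15 missed the threshold (limma adjusted p = 0.0795). Pecam1 (CD31), which platelets and leukocytes also make, stood at 58.2, 60.9, 73.1 and 63.9 TPM in WT sham and at 68.4, 35.6, 42.4 and 41.5 TPM after TAC. Replicate 1 of the TAC group lay among the sham values, and the estimate was -0.48 ± 0.20 (limma adjusted p = 0.166).

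Of the SoxF factors, Sox17, which is linked to arterial identity, stood at 3.73, 5.97, 15.3 and 16.6 TPM in WT sham and at 1.91, 2.08, 1.30 and 2.39 TPM after TAC. The sham libraries split into a lower and a higher pair, and all 4 lay above every TAC library. The log2 difference was -1.77 ± 0.39 (limma adjusted p = 0.0313). Sox18, which acts in vessel and lymphatic development, stood at 21.5, 27.0, 20.8 and 10.1 TPM in WT sham and at 11.1, 15.2, 14.1 and 17.4 TPM after TAC. Its groups overlapped and its estimate was -0.37 ± 0.26 (limma adjusted p = 0.407).

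Ly6c1 encodes a lipid-anchored surface protein of capillary endothelium. It stood at 192, 170, 348 and 162 TPM in WT sham and at 165, 203, 144 and 192 TPM after TAC, with full overlap. The estimate was -0.24 ± 0.25 (limma adjusted p = 0.574). Its level is uncertain because 46.8% of its 31-base words occur in other genes and 33.0% in Ly6c2, a gene of monocytes, which stood at 1.17 to 3.81 TPM in WT sham and at 1.47 to 2.12 TPM after TAC. For the other 9 genes at most 2.11% of such words were shared with another gene.

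Counted together, 5 of the 10 genes had no overlap between the WT groups, all lower after TAC (Cdh5, Esam, Flt1, Tie1 and Sox17), beside 15.3% of all genes tested in the WT fit.

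**Figure D2:**
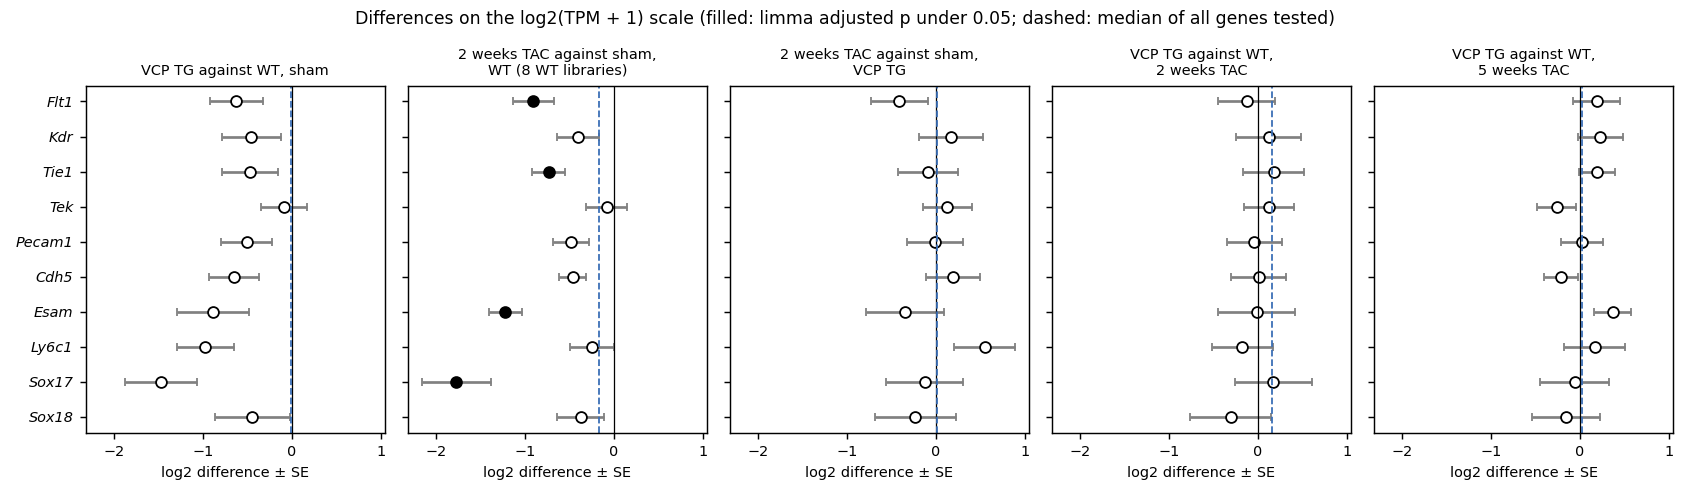
Log2 difference of each gene with its standard error (horizontal axes, log2 of TPM + 1) in 5 comparisons; filled points passed a limma adjusted p of 0.05 and the dashed line is the median of all genes tested. Filled points appear only for Flt1, Tie1, Esam and Sox17 in the WT comparison of TAC with sham.

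Over all genes, the WT difference between TAC and sham ran with the GC content of the transcripts. The median estimate was 0.10 in the 10% of protein-coding genes with the lowest GC content and -0.41 in the 10% with the highest. Spearman's rho was -0.43 across genes, a description of these libraries, since genes are not independent replicates. It was -0.31 for VCP TG against WT in sham, which shares the WT sham libraries, and -0.22 for VCP TG TAC against sham. Between genotypes it was -9.74e-06 at 2 weeks TAC and 0.16 at 5 weeks TAC. Transcripts of the endothelial genes ranged from 47.1% GC in Tek and 48.1% in Flt1 to 56.3% in Sox17, 56.4% in Esam, 57.9% in Tie1 and 60.9% in Sox18. Each gene was set against the median of the 500 genes nearest in GC content. Relative to it, Esam stood at -0.87, Flt1 at -0.80, Tie1 at -0.35 and Tek at -0.006 log2 units. Sox17 stood at -1.42 and Sox18 at 0.06 log2 units. The median itself was -0.39 for Tie1 and -0.07 for Tek, so Tie1 and Tek lie apart on this trend. The part of GC content in the ratio of Tie1 to Tek was not tested. After a correction of each library for GC content, chosen after seeing the data, the 8 WT libraries gave 0 calls among the 10 genes: Esam -0.88 ± 0.19 (limma adjusted p = 0.0595), Flt1 -0.80 ± 0.26 (0.136), Tie1 -0.36 ± 0.13 (0.158) and Sox17 -1.44 ± 0.44 (0.118).

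**Figure D3:**
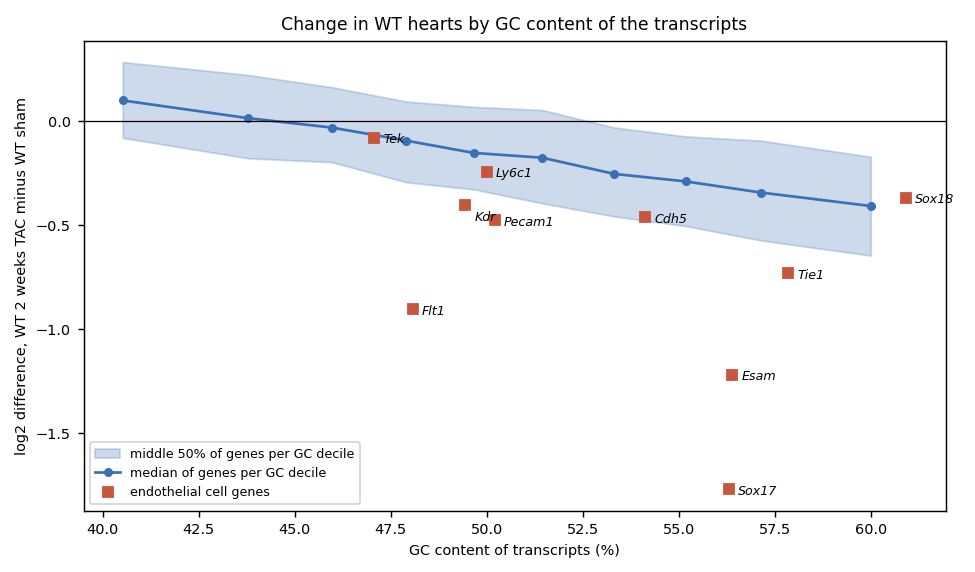
WT 2 weeks TAC minus WT sham on the log2(TPM + 1) scale (vertical axis) against GC content of the transcripts (horizontal axis, percent); the line and band are the median and middle 50% of protein-coding genes in each of 10 bins by GC content and squares are the endothelial genes. The line falls from 0.10 to -0.41. Sox17, Esam, Flt1, Pecam1, Tie1 and, by a small distance, Kdr lie below the band, and Cdh5 lies near its lower edge.

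Of the 4 WT calls, 3 were lost when certain single libraries were left out, while their estimates kept their sign. With 1 library left out at a time, the estimate ran from -1.07 to -0.78 for Flt1, -0.86 to -0.62 for Tie1 and -2.12 to -1.49 for Sox17. Esam was the only endothelial gene called when WT sham replicate 3 or any of the 4 WT 2 weeks TAC libraries was left out, TAC replicate 1 with its atrial transcripts and high Vcp among them. Without WT sham replicate 2 only Esam and Sox17 were called, and without WT sham replicate 4 Flt1 was not called while Sox18 was. Quantile normalization brought the median of all genes from -0.16 to 0.00, left the median of the 10 genes at -0.33 and gave a call for Esam alone. Over all alternative settings of the WT fit the adjusted p ran from 0.00676 to 0.0595 for Esam, 0.0255 to 0.136 for Flt1, 0.0146 to 0.158 for Tie1 and 0.00962 to 0.118 for Sox17. In the fit of all 15 libraries, leaving out VCP TG sham replicate 4 alone gave calls for Esam, Flt1, Tie1 and Sox17. Other measures also moved between these WT groups, and their part in the result was not tested. The identifiers absent from GENCODE took 11.7% to 15.4% of TPM in WT sham and 4.18% to 8.76% after TAC. Olfactory and vomeronasal receptor genes averaged 0.0450 to 0.0728 TPM in WT sham and 0.107 to 0.200 TPM after TAC. The summed macrophage markers were 95.1 to 154 TPM in WT sham and 116 to 313 TPM after TAC (8 of 9 tested, 0 called), and the fibroblast markers 303 to 517 and 327 to 883 TPM (7 of 7 tested, 0 called). The pericyte and smooth muscle markers summed to 219 to 401 and 274 to 346 TPM, with 1 of 10 called, Notch3, which fell. The monocyte markers summed to 8.30 to 16.8 and 11.4 to 22.1 TPM, with 1 of 5 called, Chil3, which rose by 1.14 ± 0.22 (limma adjusted p = 0.0213). The summed cardiomyocyte markers were 23328 to 33602 TPM and 21051 to 26316 TPM, and of these Myh6, the adult heavy chain, fell by 0.72 ± 0.17 (limma adjusted p = 0.0325). The 5 lung epithelium markers summed to at most 1.58 TPM in these groups, with Sftpc listed at 0 in the 4 WT sham libraries.

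Endothelial genes outside the 10 were followed through 10 related lists, in which 92 genes were tested in the WT fit. Of them 13 were called lower and 0 higher after TAC, beside 6.31% of all genes called lower and 0.722% higher, and list counts of 0 to 2 below lie near that share. Among VEGF ligands and further receptors 1 of 8 fell: Flt4, the receptor of lymphatic growth factors, at 5.02 ± 1.10 TPM in WT sham and 2.72 ± 0.36 TPM after TAC (SD, n = 4 each; log2 difference -0.68 ± 0.18, limma adjusted p = 0.0477). Vegfa, the ligand of Flt1 and Kdr, stood at 255 ± 98.6 and 143 ± 31.6 TPM, and its estimate of -0.79 ± 0.26 did not pass (limma adjusted p = 0.0840). Of 3 tested angiopoietin genes none passed: Angpt1, which activates Tek, had an estimate of 0.71 ± 0.42, Angpt2, its context-dependent antagonist, 0.12 ± 0.21, and the phosphatase Ptprb, which restrains Tek, -0.52 ± 0.15 (limma adjusted p = 0.0578). With single libraries left out, the estimate of Angpt1 ran from 0.33 (without WT 2 weeks TAC replicate 1) to 0.94 and that of Angpt2 from 0.0044 to 0.23. Of 8 hypoxia response genes none passed, with estimates of -0.61 ± 0.18 for Epas1, the hypoxia factor rich in endothelium (limma adjusted p = 0.0626), and -0.33 ± 0.19 for Hif1a.

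Of 13 further pan-endothelial genes 3 passed the test: Rasip1, a Ras-interacting protein needed for vessel lumens, fell by 1.39 ± 0.22, S1pr1, a receptor for sphingosine phosphate, fell by 1.18 ± 0.28, and the guidance receptor Robo4 fell by 0.90 ± 0.15. Of 9 capillary and lipid transport genes 3 passed: Rgcc fell by 1.68 ± 0.41, the water channel Aqp1 fell by 1.23 ± 0.25 and Gpihbp1, which holds lipoprotein lipase on capillaries, fell by 1.17 ± 0.27. Of 11 arterial and Notch genes 2 passed: Notch4 fell by 1.17 ± 0.25 and Sema3g fell by 0.66 ± 0.16. Of 18 endothelial transcription factors 2 passed: Gata2 fell by 0.79 ± 0.18 and Tal1 fell by 0.59 ± 0.16. Of 12 junction genes F11r (junctional adhesion molecule A) fell by 0.79 ± 0.18, of 5 venous and endocardial genes Ephb4 fell by 0.70 ± 0.19, and of 5 lymphatic genes 0 were called. The limma adjusted p of these 12 genes lay between 0.0136 (Rasip1) and 0.0485 (Tal1). The median estimate was -0.47 for the capillary list, -0.44 for the pan-endothelial list, -0.13 for the arterial list and 0.22 for the venous and endocardial list, beside -0.16 for all genes. Of the 92 genes, 0 were called after the GC correction, 2 after quantile normalization, 8 without WT sham replicate 2, 1 without WT sham replicate 3 and 0 to 5 without any 1 of the 4 WT TAC libraries.

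In sham hearts, VCP TG against WT, none of the 10 endothelial genes changed by the test, while all 10 estimates lay below 0. The WT sham libraries are those of the TAC comparison above. The median estimate was -0.57 log2 units, beside -0.01 for all 15540 genes. After the GC correction it was -0.53, beside -0.01 for all genes tested. Without that correction, 5 genes reached an unadjusted limma p under 0.05 (Cdh5, Esam, Flt1, Ly6c1 and Sox17). Of all genes tested, 2.1% did so in the lower direction. No gene of any kind was called (616 at an unadjusted p under 0.05; smallest limma adjusted p = 0.735). Sox17 had the estimate farthest from 0, at 2.94 ± 1.89 TPM in VCP TG sham against 10.4 ± 6.48 TPM in WT sham (SD, n = 4 each; -1.47 ± 0.40, limma adjusted p = 0.883). Its 4 VCP TG values were 3.59, 2.31, 5.15 and 0.708 TPM, of which 5.15 TPM lay above the lowest WT sham value of 3.73 TPM.

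Ly6c1 stood at 161, 157, 79.8 and 60.0 TPM in VCP TG sham, below every WT sham library, and Cdh5 at 55.3, 56.3, 47.0 and 18.7 TPM likewise. These 2 of 10 genes compare with 0.431% of all genes that had no overlap and were lower. After rescaling to nuclear protein-coding genes Ly6c1 overlapped and Cdh5 did not, which left 1 of 10 beside 2.29% of all genes. The estimates were -0.97 ± 0.32 for Ly6c1 and -0.65 ± 0.28 for Cdh5 (limma adjusted p = 1 for each). The Ly6c1 values of VCP TG sham replicates 1 and 2 were just under the lowest WT sham value of 162 TPM. Esam stood at 26.9, 20.5, 34.1 and 4.54 TPM, and Flt1 at 48.7, 42.1, 44.2 and 17.5 TPM, each overlapping WT sham. The remaining estimates were -0.51 ± 0.29 for Pecam1, -0.47 ± 0.32 for Tie1, -0.45 ± 0.33 for Kdr, -0.45 ± 0.42 for Sox18 and -0.08 ± 0.26 for Tek.

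Without VCP TG sham replicate 4 all 10 sham estimates were nearer to 0. The median of the 10 genes was then -0.25 and 8 of 10 lay below 0, with a median of 0.20 for all genes. Esam went from -0.89 to -0.31, Tie1 to -0.07, Kdr to -0.06 and Sox18 to 0.12, while Sox17 stood at -1.12 ± 0.39 and Ly6c1 at -0.71 ± 0.29. Without the 4 libraries rich in atrial transcripts, which include VCP TG sham replicates 3 and 4, Ly6c1 was -0.38 ± 0.28 and Sox17 -1.34 ± 0.47. The 6 red blood cell markers summed to 23.4 to 104 TPM in WT sham and 106 to 2185 TPM in VCP TG sham. Of these, 4 of 6 were higher at an unadjusted p under 0.05, beside 616 of 15540 genes at that p in either direction. The 5 platelet markers summed to 21.2 to 34.0 TPM in WT sham and 24.1 to 389 TPM in VCP TG sham. The part of red blood cell and platelet markers in the result was not tested. Of the capillary list 0 of 9 genes were called. At an unadjusted p under 0.05, 4 of them were lower, beside 2.1% of all genes tested. They were Rgcc (-1.60 ± 0.40), Gpihbp1 (-1.29 ± 0.51), Car4 (-0.91 ± 0.41) and the fatty acid carrier Fabp4 (-0.60 ± 0.25). Without VCP TG sham replicate 4 these were -1.22, -0.59, -0.50 and -0.47, and without VCP TG sham replicates 3 and 4 they were -1.30, -0.72, -0.29 and -0.27. Without WT sham replicate 3 Car4 was -0.60.

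In VCP TG hearts, 2 weeks TAC against sham, none of the 10 genes was called, beside 0.766% of all genes called higher and 0.00644% called lower. The estimates ran from -0.41 ± 0.32 for Flt1 to 0.55 ± 0.34 for Ly6c1, with a median of -0.05 and 6 of 10 below 0 (9 of 10 after rescaling, which moved the median of all genes from 0.02 to -0.25). In VCP TG 2 weeks TAC, Flt1 stood at 24.4, 27.3 and 28.1 TPM and Esam at 13.4, 10.4 and 17.6 TPM. On TPM as deposited these were levels like those of WT 2 weeks TAC. After rescaling, the mean of Flt1 was 61.2 in VCP TG and 88.6 in WT, and that of Esam 31.4 and 41.1. The VCP TG sham libraries set against these VCP TG TAC libraries reached down to 17.5 TPM for Flt1 and 4.54 TPM for Esam, both in replicate 4. The TAC response of VCP TG minus that of WT was above 0 for all 10 genes on TPM as deposited, for 8 after rescaling and for 9 after quantile normalization. Its median was 0.61 beside 0.22 for all genes, and after rescaling 0.30 beside -0.02. Of the 10 genes 0 passed the test, beside 0.00644% of all genes called higher. Sox17 had the highest of these differences, 1.65 ± 0.59 (unadjusted p = 0.0118, limma adjusted p = 0.872), 1 of 10 genes at an unadjusted p under 0.05 beside 4.04% of all genes tested that were higher, then Esam with 0.87 ± 0.60 and Ly6c1 with 0.79 ± 0.47. The lowest was Sox18 with 0.14 ± 0.62, and it turned below 0 without VCP TG sham replicate 4 (-0.42). The median over the 10 genes without that library was 0.21, beside -0.0070 for all genes.

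Between genotypes after TAC, the endothelial genes had small estimates on TPM as deposited, and at 2 weeks these depended on the scaling. At 2 weeks, VCP TG against WT, they ran from -0.30 ± 0.46 for Sox18 to 0.18 ± 0.34 for Tie1, and 0 of 10 were called, beside 0.0901% of all genes called higher and 0 lower. Cdh5 stood at 46.1, 42.6 and 52.5 TPM in VCP TG and 44.2 to 51.5 TPM in WT, and its 95% interval for the log2 difference ran from -0.63 to 0.64. The interval was -0.80 to 0.54 for Flt1, -0.63 to 0.87 for Kdr and -0.93 to 0.90 for Esam, so differences of that size in either direction were not excluded. The median of all genes was 0.16 on TPM as deposited and -0.17 after rescaling to nuclear protein-coding genes. Relative to it 8 of 10 genes were lower as deposited and 9 after rescaling, when all 10 estimates lay below 0 and that of Tie1 turned to -0.20. The median of the 10 genes was -0.0038 as deposited and -0.39 after rescaling. Over all alternative settings the estimate of Sox18 ran from -0.70 to -0.17.

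At 5 weeks TAC, VCP TG against WT, 0 of 10 endothelial genes were called, beside 0.00715% of all 13986 genes called higher. Esam had the highest estimate, 0.37 ± 0.21 (limma adjusted p = 0.904). It stood at 20.9, 18.9, 23.8 and 13.5 TPM in WT and at 25.5, 23.1 and 25.5 TPM in VCP TG, and the groups overlapped. Tek had the lowest estimate, -0.26 ± 0.22, with 17.9, 12.4, 12.6 and 16.1 TPM in WT and 16.0, 11.2 and 9.62 TPM in VCP TG. The median of the 10 genes was 0.09, and -0.03 after rescaling. Sox17 ranged from 3.95 to 8.43 TPM in WT and from 2.40 to 9.98 TPM in VCP TG, with an estimate of -0.06 ± 0.38. Leaving out the 3 libraries of these groups whose Vcp went against the label gave 0.50 ± 0.30 for Esam and -0.32 ± 0.28 for Tek, neither called. The genotype difference at 5 weeks minus that at 2 weeks lay between -0.39 ± 0.37 (Tek) and 0.38 ± 0.56 (Esam), and 0 of 10 passed, beside 0.00612% of 16347 genes called lower.

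Across libraries the 10 genes did not move as a single block. Deviations from the group means, on log2 of rescaled TPM + 1 over 22 libraries, gave a median Pearson's r of 0.41 over the 45 gene pairs, from -0.43 for Tek with Sox17 to 0.80 for Tie1 with Sox18. Other high pairs were Esam with Tie1 (0.78), Kdr with Sox18 (0.75) and Esam with Sox17 (0.72). Of the receptor pairs, Flt1 with Kdr gave 0.36 and Tie1 with Tek 0.19. A gene's mean r with the other 9 was highest for Tie1 (0.50), Cdh5 (0.50) and Esam (0.49) and lowest for Tek (-0.02). Points of one library share its depth, composition and scaling, so these values are descriptions.

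**Figure D4:**
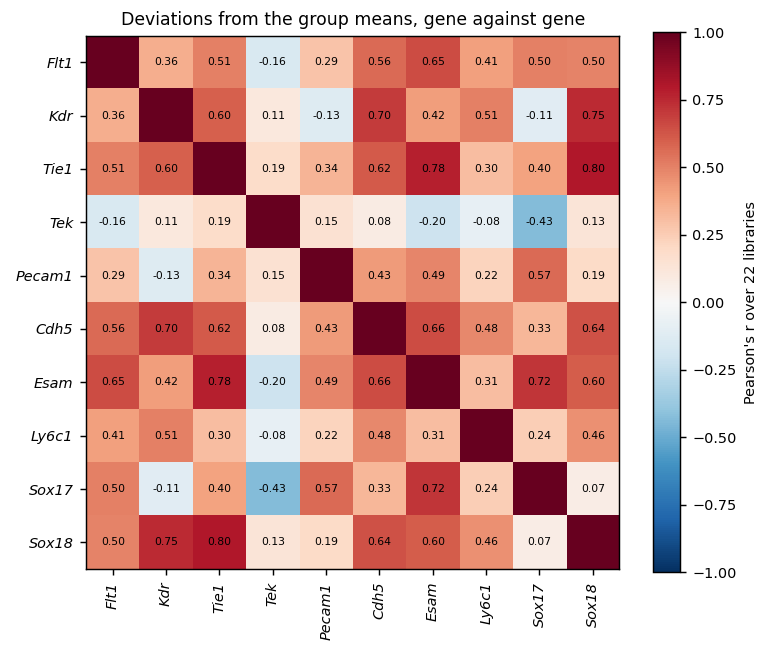
Pearson's r of each pair of endothelial genes (both axes) over 22 libraries, computed from deviations from the group means of log2(rescaled TPM + 1). Tek has r from -0.43 to 0.19 with the others, and Esam, Tie1, Cdh5 and Sox18 have r of 0.60 to 0.80 among themselves.

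Among 7246 other genes with a mean of at least 5 TPM in each table, the median of the mean r with the 10 endothelial genes was 0.24, and 342 genes exceeded the highest value among the 10 themselves. Among the 8 genes most like them were Slc9a3r2 (0.62), Ccny (0.60), Gm45837 (0.60), Hnrnpab (0.60), Tmed9 (0.59), Pcdh1 (0.59) and Znrf1 (0.59). None of the 8 is in the related endothelial lists.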

How the data were processed

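The deposited values are TPM, since each column sums to 1000000, in separate tables for 2 weeks (15 libraries) and 5 weeks (7 libraries). Per the labels' protocols, RNA was extracted with a miRNeasy kit and libraries were made with a TruSeq Stranded mRNA kit. The submitters' processing notes name Trimmomatic 0.35, kallisto 0.43.1, STAR 2.5.4b, DESeq2 and GRCm38, with no role or order. TPM holds no read number, so depth is unknown, and values within a library are shares, so that more of an abundant transcript leaves less for the rest.

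Gene positions and names came from GENCODE M21 on GRCm38, which held 30074 of the 30735 identifiers. The 10 genes are Flt1 (ENSMUSG00000029648, chromosome 5, 147561604 to 147726011), Kdr (ENSMUSG00000062960, 5, 75932827 to 75978458), Tie1 (ENSMUSG00000033191, 4, 118471191 to 118490061), Tek (ENSMUSG00000006386, 4, 94739289 to 94874976), Pecam1 (ENSMUSG00000020717, 11, 106654217 to 106750628), Cdh5 (ENSMUSG00000031871, 8, 104101625 to 104144511), Esam (ENSMUSG00000001946, 9, 37528078 to 37538319), Ly6c1 (ENSMUSG00000079018, 15, 75044018 to 75048830), Sox17 (ENSMUSG00000025902, 1, 4490931 to 4497354) and Sox18 (ENSMUSG00000046470, 2, 181669836 to 181671640).

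Differences were tested two-sided with limma 3.58.1 (R 4.3.3; 1 mean per group, variance trend, robust moderation), after adding 1 to each TPM and taking log2. A gene entered a fit where 3 or more of its libraries reached 1 TPM, which all 10 genes did. The fold changes understate the change of low genes. Related genes are named where they passed, up to 4 per list, and otherwise by mean TPM. Vegfa, Epas1, Hif1a, Notch3, Chil3 and the capillary genes given for sham were chosen after their values were seen. The members and lists were chosen with earlier results of these data known. On simulated data with 200 changed genes, the fit of the 8 WT libraries recovered 48.5% of genes changed by 1 log2 unit and 93.5% of those changed by 2, and the fit of 15 libraries 17.5% and 88.0% for the same comparison. The simulated noise was independent, with the same SD in all groups and no GC trend. The real groups differed in spread and carried such a trend, so these rates may not hold for them. Alternatives covered the pseudocount, filters, scaling, weights, replicate block and libraries left out. Replicate numbers recur between groups with no stated meaning. In sham, same-numbered libraries deviated together in all 4 pairs (r of 0.107 to 0.260 across genes). Only replicates 2 and 4 were most alike the library of their own number, so the evidence of pairing is weak. A paired fit, the replicate block, was run in every comparison and in sham rests on the data alone. Of the genes most like the 10 in pattern, 1 is not reported here.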

Additional observations from a re-analysis of the deposited data

Results flagged for a closer look

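The level of Ly6c1 in WT sham replicate 3 was 348 TPM, against 162 to 192 TPM in the other 3 libraries of its group, a gap of 0.838 of the group's range. It was the only 1 of 40 groups of 4 libraries, over the 10 genes, in which an end value stood that far from the rest; chance gives about 1 such group in 20. Without this library the WT difference between TAC and sham in Ly6c1 was 0.0046 in place of -0.24.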

How the results depend on the processing

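Depth is unknown and limits low genes such as Sox17. The count of endothelial genes called stayed at 0 under every setting run in all comparisons except TAC against sham in WT. In the fit of 15 libraries that count of 0 became 6 with library weights, 4 with the 2 groups fitted alone, 4 without the libraries set aside by the largest gap in Vcp and 5 without the atrial-rich libraries, and 0 to 4 when each library was left out in turn. The 2 groups fitted alone are the same fit as that of the 8 WT libraries. In the 8 WT libraries the count of 4 became 6 with library weights (Pecam1 and Cdh5 added) and 3 after rescaling (Flt1 lost). It became 1 with no filter and 1 with quantile normalization. It was also 1 without WT 2 weeks TAC replicate 1, which is both the atrial-rich library and the library of high Vcp. The rule for high Vcp was chosen after seeing the data. The count was 0 with GC correction, also chosen after seeing the data, and 1 to 4 with each library left out. With the replicate block it was 3 there, Tie1 being lost (adjusted p = 0.0569), and 0 in the sham comparison and every other; same-numbered libraries outside sham did not all deviate together. Of the 13 related genes called, Flt4, Tal1, Gata2, Sema3g and Ephb4 were lost with the block, and no other call changed. The cause of these changes was not tested. Among single genes, 1546 gene values under alternatives gave 29 changes of sign, none of them in a comparison where that gene was called. Tie1 at 2 weeks TAC between genotypes was -0.20 after rescaling. Tek in TAC against sham, WT, was 0.13 with quantile normalization in either fit, and -0.24 to 0.080 with a library left out, and Ly6c1 there was -0.36 to 0.0046. Sox18 there was 0.055 (15 libraries) and 0.080 (8 libraries) with GC correction. In sham, Sox18 was 0.065 with library weights, 0.26 without atrial-rich libraries, 0.14 without the largest-gap libraries and -0.72 to 0.12 with a library left out, Kdr 0.12 and 0.080 without the same sets, and Tek 0.023 without atrial-rich libraries and -0.25 to 0.077 with a library left out. The Sox18 difference of TAC responses was -0.16 after rescaling, -0.054 with quantile normalization, -0.18 with GC correction, -0.33 with library weights, -0.11 with the replicate block, -0.55 without atrial-rich libraries and -0.42 to 0.42 with a library left out. The largest-gap rule for Vcp set aside 9 of the 10 VCP TG libraries, so it could not be run for the other comparisons of VCP TG groups. The number of all genes called ranged over settings from 49 to 2364 in the 8 WT libraries (964 as reported) and from 0 to 2568 for the same comparison in 15 libraries (0 as reported). It ranged from 1 to 1846 for VCP TG TAC against sham (120), from 1 to 2607 between genotypes at 2 weeks TAC (14), from 0 to 36 for the difference of responses (1), from 0 to 3 between genotypes at 5 weeks (1) and in sham (0), and from 0 to 10 for the difference between times (1).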
